A study of Mus musculus with 5 samples.

Results

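The Janus kinase (JAK) family consists of Jak1, Jak2, Jak3 and Tyk2, and these 4 genes were followed through every cell class that marker genes could define in tumors and tumor-draining lymph nodes (TDLNs). They were taken by name from the gene rows of all 5 deposited matrices, as 4 of 32285 genes in the TDLN matrices and 4 of 33696 genes in the tumor matrices. No JAK gene was used to define a cell class or a treatment.

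JAKs sit on the intracellular tails of cytokine receptors that have no kinase activity of their own. When a cytokine joins the receptor chains, the paired JAKs phosphorylate each other and the receptor, and STAT proteins are recruited, phosphorylated and sent to the nucleus. Jak1 serves interferon, common gamma chain and gp130 receptors, Jak2 serves the IFN-γ receptor and the GM-CSF and erythropoietin families, Jak3 pairs with the common gamma chain in lymphocytes, and Tyk2 serves type I interferon and IL-12 receptors. ABT-317, the compound given here, is an inhibitor of JAK1.

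The data were droplet-based 5′ single-cell RNA-Seq (scRNA-Seq), in which unique molecular identifiers (UMIs) count captured RNA molecules. All mice were male wild-type C57BL/6J animals aged 8 to 10 weeks that received 1000000 cancer cells under the skin, either TRAMP-C2 (a mouse prostate cancer line, source of the 3 TDLN reactions) or MC38 (a mouse colon cancer line, source of the 2 tumor reactions). Mice received isotype antibody or checkpoint inhibitors (CPI, anti-CTLA4 with anti-PD-1) at day 3, day 6 and day 9, then, at day 12, ABT-317 (20 mg/kg) or its vehicle, and tissues were taken on day 15. For MC38 mice the paper counts these days from implantation in its methods, but from enrollment at a set tumor size in a figure legend. The groups in the tumor reactions were isotype, CPI, isotype + ABT-317 and CPI + ABT-317, whereas the TDLN reactions held isotype, CPI and CPI + ABT-317 according to the deposited key. Tumor cells were sorted into CD45+ and CD45- fractions and mixed 1:1, so class shares were set in part by the sort and are not compared. Oligonucleotide-tagged antibodies called hashtags marked the treatment within a reaction, and the deposited key names no single mouse for them. The paper reports that hashtags identified samples as well as treatment groups. Mice could not be told apart here, so p-values measure only the spread between reactions, which may be technical.

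The TDLN reactions held 7050 to 62575 barcodes and 18055617 to 127052825 gene UMIs, and the MC38 reactions held 27582 and 37774 barcodes with 377184807 and 435031691 gene UMIs. All antibody counts were 0 in the TDLN matrices, so TDLN barcodes were not divided by treatment. T and B markers stood together in 53.8%, 41.4% and 48.1% of the TDLN barcodes that passed the filters. The gates left out more than these, and the classes held 584, 1563 and 32 barcodes, or 0.937%, 2.78% and 0.491% of those passing. Barcodes with too few markers and T-like barcodes outside the CD4, CD8 and Treg subsets (216, 614 and 15) were in no class. Further lists of 13 T and 10 B genes set another limit. The other lineage's list could take a share of at most 0.2 in T-like and 0.05 in B-like barcodes. Any 2 TDLN reactions shared 8.15% to 8.53% of the barcodes of the smaller one, and the MC38 reactions shared 174 barcodes (1.80%). Pairs across tissues gave similar shares. With MC38 reactions 1 and 2, TDLN reaction 1 shared 8.8% and 8.6%, reaction 2 7.7% and 7.4%, and reaction 3 1.8% and 1.3%. Of the MC38 barcodes, 40.3% and 35.1% passed the filters, which required 200 to 2499 detected genes and a mitochondrial share of less than 10%.

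Marker genes allowed 7 lineages to be gated in MC38 tumors: macrophage-like, fibroblast-like, T-like, neutrophil-like, endothelial-like, dendritic cell-like (DC-like) and monocyte-like. Macrophage-like barcodes were the most numerous in this gate, with 6186 and 5410 in reactions 1 and 2, followed by 1505 and 803 fibroblast-like and 236 and 206 T-like barcodes. The remaining classes were small, with 82 and 32 neutrophil-like, 64 and 41 endothelial-like, 45 and 32 DC-like and 38 and 31 monocyte-like barcodes. Surface antibodies that the gates did not use gave a check of these labels, as medians per 10000 antibody UMIs of a barcode. CD31, an endothelial surface protein, reached 456 and 371 in endothelial-like barcodes and was no higher than 31.1 in any other class. The MHC class II antibody (I-A/I-E) reached 604 and 486 in DC-like barcodes against 62.6 and 65.3 in macrophage-like ones, and Ly-6G reached 101 and 125 in neutrophil-like barcodes against 42.8 and 42.5. The T cell receptor antibody separated T-like barcodes only weakly, with a median of 26.3 in reaction 1 against 22.1 in macrophage-like barcodes. CD115 did not separate macrophage-like barcodes (17.8 and 18.3) from T-like ones (19.6 and 18.5). CD45 was 27.9 and 30.1 in macrophage-like against 21.6 and 20.6 in fibroblast-like barcodes. Ly-6C was 240 and 470.5 in monocyte-like against 227 and 256.5 in endothelial-like barcodes. CD11b was higher in macrophage-like (173 and 189) than in T-like barcodes (25.5 and 23.3), as was F4/80 (53.4 and 53.4 against 41.8 and 39.6). CD11c was highest in DC-like barcodes. No barcode passed the gate for keratin-positive tumor cells.

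Jak1 and Jak2 are shown first as sequence, because they carry the differences reported here. Jak1 (ENSMUSG00000028530) lies on the minus strand of GRCm38 at chr4:101152367-101265282, and Jak2 (ENSMUSG00000024789) on the plus strand at chr19:29251828-29313080. The windows below run from 250 bases before to 50 bases within the RefSeq gene start of build GRCm38.p6, at chr4:101265174-101265473 (minus strand) and chr19:29251553-29251852 (plus strand). Each is written 5′ to 3′ on the strand of the gene, and capitals mark matches to the motifs listed after them.
Jak1 promoter: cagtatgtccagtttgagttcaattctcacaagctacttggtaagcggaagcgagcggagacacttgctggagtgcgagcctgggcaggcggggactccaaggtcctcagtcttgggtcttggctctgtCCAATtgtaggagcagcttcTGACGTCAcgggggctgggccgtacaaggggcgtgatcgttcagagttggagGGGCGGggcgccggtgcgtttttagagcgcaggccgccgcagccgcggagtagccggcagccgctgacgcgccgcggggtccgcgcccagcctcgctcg
Jak2 promoter: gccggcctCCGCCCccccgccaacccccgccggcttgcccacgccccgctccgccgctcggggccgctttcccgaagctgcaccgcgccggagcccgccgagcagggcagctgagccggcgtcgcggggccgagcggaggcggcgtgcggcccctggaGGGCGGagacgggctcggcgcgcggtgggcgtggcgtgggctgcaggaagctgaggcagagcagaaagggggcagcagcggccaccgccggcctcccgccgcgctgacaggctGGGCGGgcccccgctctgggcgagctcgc

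Both windows were rich in G and C, at 64.7% for Jak1 and 81% for Jak2, the latter above the GC content of 99.3% of the 32851 RefSeq promoters of the same length. The 6 motifs named here were searched on both strands. The GC box GGGCGG occurred once in Jak1 and 3 times in Jak2 and was present in 35.7% of all promoters. The CCAAT box (CCAAT, present in 37.4% of promoters) and the cAMP response element TGACGTCA (1.79%) each occurred once in Jak1 and not in Jak2. The IFN-γ activated site TTCNNNGAA (8.3% of promoters), the interferon-stimulated response element (GAAA, any pair of bases, GAAA; 3.44%) and the ETS core CCGGAAGT (3.89%) were found in none of the 4 JAK windows. A match is only a run of letters, and a missing match says no more than that these letters do not occur in this window. Jak3 (ENSMUSG00000031805, plus strand, chr8:71676296-71690575) and Tyk2 (ENSMUSG00000032175, minus strand, chr9:21104068-21131243) had windows of 54.3% and 58% GC. The Jak3 gene shares 1362 bases on the same strand with Insl3, and Jak1 shares 172 bases on the same strand with the pseudogene Gm12785. On the opposite strand, 24326 bases of Tyk2 are overlapped by the antisense gene 1700084C06Rik. Whether strand was counted is not given, and the effect of these overlaps on the counts was not tested.

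With the main filters, Jak1 had its highest mean among the 7 tested MC38 lineages in endothelial-like sums (321 ± 51.4 CPM, SD, n = 2). Its lowest means were in macrophage-like and monocyte-like sums. Levels are UMI counts of a class summed over its barcodes in one reaction and divided by all UMIs of that sum and scaled to 1000000 (CPM). In reactions 1 and 2, Jak1 stood at 357 and 284 CPM in endothelial-like sums. It was 211 and 310 CPM in T-like sums and 213 and 258 CPM in fibroblast-like sums. The T-like range overlapped each of the others, whereas both endothelial-like values lay above both fibroblast-like ones. Neutrophil-like sums gave 209 and 237 CPM of Jak1, from 33 and 8 UMIs. Macrophage-like sums gave 108 and 93.6 CPM, below both endothelial-like, both T-like, both fibroblast-like and both neutrophil-like values. DC-like sums (190 and 73.2 CPM) and monocyte-like sums (161 and 26.7 CPM) spread so widely between reactions that their place in the order is not fixed. With the main filters, some smaller sets outside the test gave higher values than endothelial-like sums. These were 688 CPM of Jak1 (21 UMIs) in 14 NK-like barcodes of reaction 2 and 384 ± 76.6 CPM (SD, n = 2) in 41 barcodes of the CD4 T subset. The CD8 T subset (273 ± 105 CPM), the Treg subset (222 ± 6.40 CPM) and unnamed barcodes with a Hmga2 UMI (168 ± 61.2 CPM) had lower means. Without the upper gene limit, NK-like sums held 170 ± 98.8 CPM (SD, n = 2).

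Each class was then compared with the mean of the other 6 classes by edgeR's quasi-likelihood test with Benjamini-Hochberg adjustment over all genes tested. Only Jak1 and Jak2 passed the filter on low counts, which gave 14 tests, of which 5 had an adjusted p under 0.05. Jak1 was lower in macrophage-like sums, by log2 -0.86 ± 0.26 (SE, adjusted p = 0.0180), in a comparison that called 25.0% of all genes. Jak1 was higher in fibroblast-like sums, with log2 0.71 ± 0.24 (adjusted p = 0.0199) where 41.9% of genes were called, and in endothelial-like sums, with log2 0.83 ± 0.30 (adjusted p = 0.0398) where 25.8% were called. For T-like sums the Jak1 difference was log2 0.60 ± 0.28 (adjusted p = 0.131), in a comparison that called 21.7% of genes. It passed with thinned barcodes (log2 0.95, adjusted p = 0.0111, 24.2% called), and was 1.27 without reaction 1 and 0.03 without reaction 2. All 3 Jak1 calls depended on settings. Without the upper limit on genes per barcode the macrophage-like difference was -0.17 (adjusted p = 0.561) and the fibroblast-like difference 0.32 (adjusted p = 0.134), and the endothelial-like call was lost under 4 of the alternatives. The fibroblast-like value was 1.42 without reaction 1 and 0.33 without reaction 2, which leave no test.

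These class sums pool the treatments, whose shares and Jak1 levels differed between classes. Among barcodes with a hashtag, fibroblast-like ones were mostly CPI (1208, against 130 isotype) and macrophage-like ones mostly isotype (7436, against 274 CPI). Within CPI, Jak1 was 273 ± 15.7 CPM in fibroblast-like and 203 ± 0.362 CPM in macrophage-like sums (SD, n = 2), and within isotype 129 ± 38.9 and 98.2 ± 9.20 CPM. The class comparison was not tested within treatments.

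With the main filters Jak2, the kinase of the IFN-γ and GM-CSF receptors, was highest in DC-like and lowest in fibroblast-like sums among the 7 tested lineages of MC38 tumors. DC-like sums held 253 and 293 CPM of Jak2 from 40 and 36 UMIs, above the other 6 lineages in both reactions. Fibroblast-like sums held 33.8 and 29.0 CPM from 211 and 102 UMIs, below the other 6 lineages in both reactions. Outside these lineages, the CD4 T subset held 267 ± 118 CPM (SD, n = 2, 17 UMIs), unnamed barcodes with a Hmga2 UMI held 28.7 ± 7.40 CPM, and NK-like barcodes held no Jak2 UMI. Between these ends, Jak2 was 121 and 108 CPM in T-like, 141 and 86.9 CPM in endothelial-like, 101 and 118 CPM in neutrophil-like and 141 and 40.1 CPM in monocyte-like sums, and these 4 classes overlapped. Macrophage-like sums gave 69.8 and 61.9 CPM and overlapped only with the monocyte-like range. The DC-like difference was log2 1.82 ± 0.27, or 3.54-fold (adjusted p = 2.04e-05), where 14.3% of genes were called. The fibroblast-like difference was log2 -1.65 ± 0.24 (adjusted p = 5.43e-06). Without the upper gene limit the mean of Jak2 was 91.9 ± 8.06 CPM in DC-like sums (SD, n = 2), the highest of the 7 lineages. The lowest was then 15.9 ± 3.99 CPM in neutrophil-like sums, below 18.9 ± 3.20 CPM in fibroblast-like ones.

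Both Jak2 calls were kept in every alternative that had a test, with log2 values of 1.66 to 1.83 for DC-like and -1.80 to -0.97 for fibroblast-like sums. The stricter gate left too few DC-like barcodes, so the DC-like call could not be tested there. The DC-like value was 2.26 without reaction 1 and 1.51 without reaction 2, which leave no test. With the reaction as a replicate block, Jak2 was also lower in macrophage-like sums (log2 -0.52 ± 0.19, adjusted p = 0.0382, 30.0% of genes called), against log2 -0.53 ± 0.22 and an adjusted p of 0.0758 without it. It also passed by DESeq2 (log2 -0.63, adjusted p = 0.00130, 34.3% called) and with DESeq2's size factors in edgeR (log2 -0.63, adjusted p = 0.0377, 24.7%), but was -0.05 with the stricter gate (adjusted p = 0.925) and 0.09 without the upper gene limit (adjusted p = 0.845). Neither Jak1 nor Jak2 passed the test in monocyte-like or neutrophil-like sums, where 8.24% and 6.04% of all genes were called. Jak2 gained a call without the upper gene limit in neutrophil-like sums (log2 -1.14, adjusted p = 0.00217, 13.5% of genes called) and with the stricter gate in T-like sums (log2 0.97, adjusted p = 0.0139, 15.5%). Of the 77 DC-like barcodes, 46 (59.7%) held only the minimum number of markers, and Ccr7, Ccl22, Il12b and Ccl17, genes of mature DCs, led the class. Ccr7 and Ccl22 were markers of the gate itself, so their lead followed from it, whereas Il12b and Ccl17 were not.

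**Figure D1:**
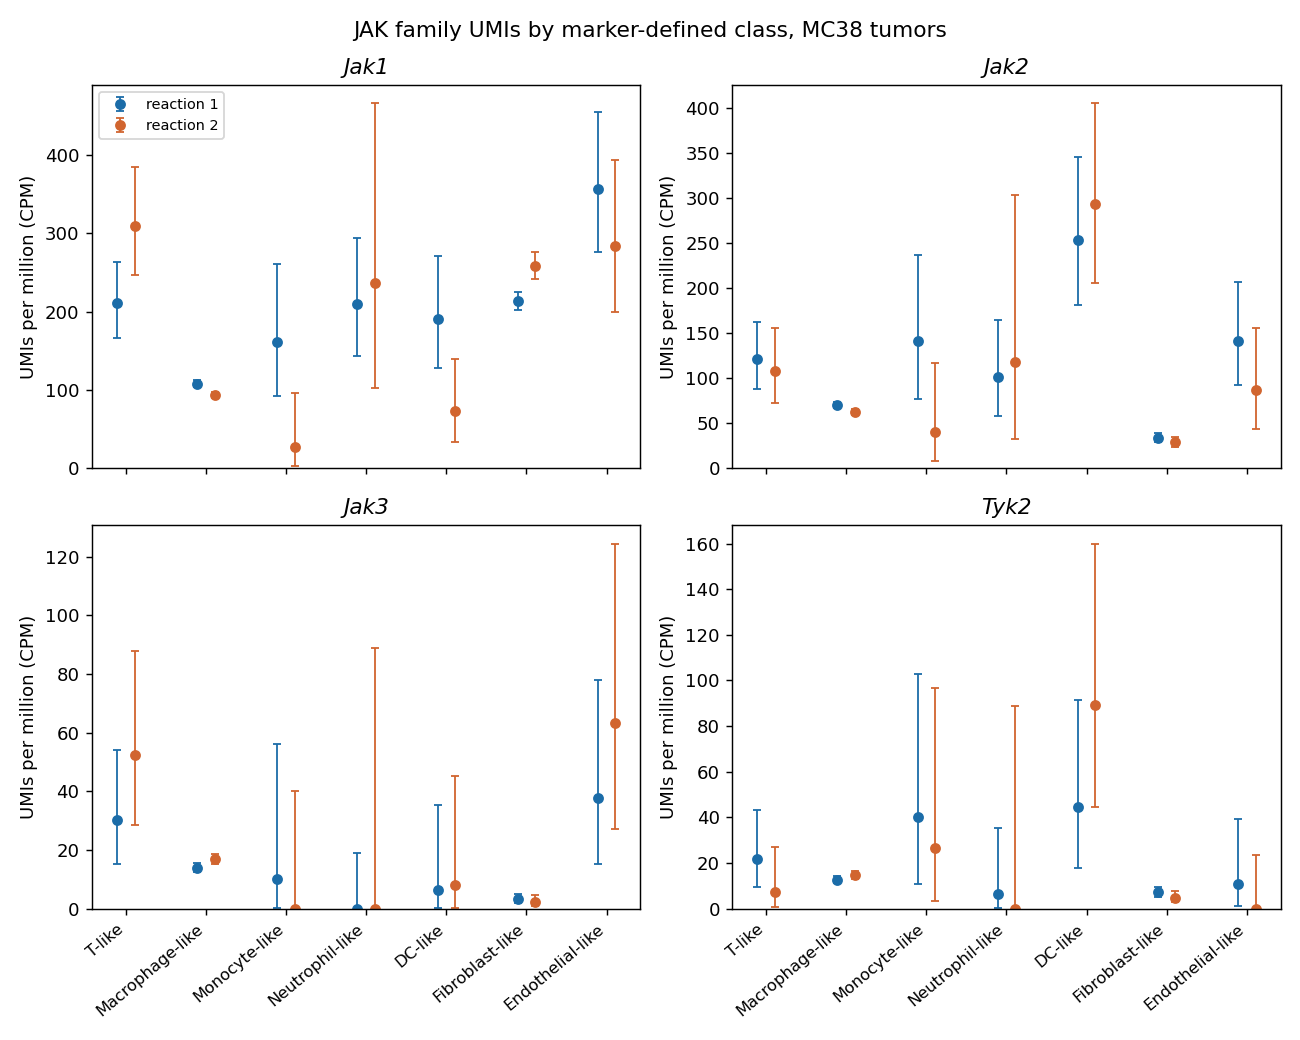
Level of each JAK gene (CPM) in the marker-defined classes of MC38 tumors, one point per reaction, with 95% exact Poisson intervals that cover counting error only (a sum with 0 UMIs is drawn with the upper limit of 3 counts). Jak2 is highest in DC-like sums (253 and 293 CPM) and lowest in fibroblast-like sums (33.8 and 29.0 CPM), whereas Jak1 spans 93.6 to 108 CPM in macrophage-like and 284 to 357 CPM in endothelial-like sums.

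Jak3, the partner of the common gamma chain, was scarce in MC38 tumors. T-like sums held 30.2 and 52.3 CPM from 11 and 14 UMIs, and macrophage-like sums held 14.0 and 16.8 CPM from 309 and 362 UMIs. Fibroblast-like sums held 3.21 and 2.27 CPM from 20 and 8 UMIs. Jak3 was thus higher in both T-like than in both macrophage-like sums, and higher in both of these than in fibroblast-like sums. Endothelial-like sums gave 37.9 and 63.2 CPM, from 7 and 8 UMIs, a range that overlapped the T-like one. No Jak3 UMI was seen in 82 and 32 neutrophil-like barcodes, which allows up to 19.0 and 88.8 CPM. After each barcode was thinned to 1000 UMIs, a Jak3 UMI was seen in 5% and 12.8% of endothelial-like, 3.33% and 4.35% of T-like, 1.46% and 1.96% of macrophage-like and 0.338% and 0.255% of fibroblast-like barcodes. Before thinning these shares were 9.38% and 19.5%, 4.24% and 6.80%, 4.77% and 6.38%, and 1.33% and 0.996%, and the median depths were 2649.5 and 3074 UMIs in endothelial-like, 1200 and 1062 in T-like, 3324 and 3815 in macrophage-like and 4031 and 4431 in fibroblast-like barcodes.

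Tyk2, the kinase of type I interferon and IL-12 receptors, reached 44.4 and 89.4 CPM in DC-like sums, from 7 and 11 UMIs. Macrophage-like sums gave 12.5 and 14.7 CPM from 277 and 316 UMIs, and fibroblast-like sums gave 7.21 and 4.83 CPM from 45 and 17 UMIs. The DC-like values lay above those of the other 6 lineages, and the fibroblast-like values below both macrophage-like ones. Monocyte-like sums held 40.2 and 26.7 CPM from 4 and 2 UMIs, and T-like sums 21.9 and 7.47 CPM from 8 and 2 UMIs.

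Jak3 and Tyk2 did not pass the low-count filter and were tested only under alternatives. One was a fit chosen after seeing the data, without that filter and without the neutrophil-like and monocyte-like sums. That fit called 9 of 20 tests, among them Jak1 in macrophage-like sums again, where 17.1% of genes were called. Tyk2 was higher in DC-like sums (log2 2.63 ± 0.55, adjusted p = 8.39e-05, with 4.26% of genes called) and lower in fibroblast-like sums (log2 -1.29 ± 0.49, adjusted p = 0.0491, 17.8%). Jak3 was higher in T-like sums (log2 1.61 ± 0.47, adjusted p = 0.0123, 6.59%) and in endothelial-like sums (log2 1.82 ± 0.56, adjusted p = 0.0198, 7.24%), and lower in fibroblast-like sums (log2 -2.73 ± 0.62, adjusted p = 0.000118). The endothelial-like value of Jak3 rests on 15 UMIs in all and the DC-like value of Tyk2 on 18 UMIs.

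Some of these calls did not hold under the other settings that tested both genes. Tyk2 in DC-like sums also passed without the filter in all 7 lineages (log2 2.67, adjusted p = 0.000149, 3.5% of genes called) and without the upper gene limit (log2 1.89, adjusted p = 0.0181, 4.68%). Tyk2 in fibroblast-like sums passed in none of the others, with adjusted p of 0.105 without the filter, 0.0870 without the upper limit and 0.913 with the stricter gate. The fit without the filter in all 7 lineages included neutrophil-like sums, which held 0 UMIs of Jak3, and its Jak3 values are not used. Jak3 in endothelial-like sums passed without the upper limit (log2 1.90, adjusted p = 0.000296, 10.7%) but not with the stricter gate (log2 1.48, adjusted p = 0.0577). Jak3 in T-like sums passed with the stricter gate (log2 1.94, adjusted p = 0.00328) but not without the upper limit (log2 0.63, adjusted p = 0.253). Jak3 in fibroblast-like sums passed with the stricter gate (log2 -3.47, adjusted p = 3.79e-07, 36.4%) and was -0.13 without the upper limit (adjusted p = 0.827). The same settings added a call of Tyk2 in macrophage-like sums with the stricter gate (log2 1.26, adjusted p = 0.0391, 32.6%) and one of Jak3 in neutrophil-like sums without the upper limit (log2 -1.65, adjusted p = 0.0101, 13.5%), the latter from 7 and 8 UMIs.

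In TDLNs, Jak1 was lower in B-like than in T-like sums. B-like sums held 310, 331 and 122 CPM of Jak1 in reactions 1, 2 and 3, the last from 2 UMIs in 10 barcodes. CD8 T-like sums held 528, 502 and 443 CPM. CD4 T-like sums held 524 and 467 CPM and Treg-like sums 635 and 525 CPM in reactions 1 and 2, the only reactions with at least 10 such barcodes. Every T-like value lay above every B-like value, and the 3 T subsets overlapped or adjoined each other. Against the mean of the other 3 classes, Jak1 in B-like sums differed by log2 -0.74 ± 0.21 (edgeR's quasi-likelihood test, adjusted p = 0.00691), where 30.5% of all genes were called. With the T subsets summed as 1 class, a grouping chosen after seeing the data, the difference was log2 -0.83 ± 0.26 (adjusted p = 0.00916, 27.2% of genes called).

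Median depth moved with this result, at 1448, 1121 and 1190 UMIs per B-like barcode against 2714, 2536 and 2505 per CD8 T-like barcode. Thinning every barcode to 1000 UMIs gave a Jak1 difference of -0.48 (adjusted p = 0.0559). The call was also lost without reaction 1 (log2 -0.84, adjusted p = 0.240) or reaction 2 (log2 -1.04, adjusted p = 0.0652). Barcodes with both T and B markers, which no class used, held 551, 536 and 479 CPM of Jak1.

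Among the T subsets of TDLNs, Jak2 was lowest in CD8 T-like sums. Treg-like sums held 131 and 238 CPM of Jak2 from 7 and 39 UMIs, CD4 T-like sums 141 and 68.5 CPM from 18 and 17 UMIs, and CD8 T-like sums 45.2 and 40.3 CPM from 37 and 93 UMIs. In reactions 1 and 2 both CD8 T-like values lay below both CD4 T-like and both Treg-like values, whereas the latter pair overlapped. In reaction 3 no Jak2 UMI was found in 18 CD8 T-like barcodes, which allows up to 57.8 CPM. B-like sums held 88.4 and 41.4 CPM from 43 and 38 UMIs and none in the 10 barcodes of reaction 3, and overlapped the CD8 T-like range. Jak2 was higher in Treg-like sums by log2 1.55 ± 0.38, or 2.93-fold (adjusted p = 0.0121), where 4.91% of genes were called. It was lower in CD8 T-like sums by log2 -1.23 ± 0.29 (adjusted p = 0.00677), where 9.25% were called. No JAK gene passed the test in CD4 T-like sums, where 2.99% of genes were called.

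These 3 calls among 8 TDLN tests became 5 with the reaction as a replicate block, which added Jak2 in B-like sums (log2 -0.65 ± 0.23, adjusted p = 0.0151, 40.1% of genes called) and Jak1 in CD8 T-like sums (log2 0.36 ± 0.11, adjusted p = 0.00558, 18.0%). Jak2 also differed between whole reactions, at 106, 74.5 and 57.2 CPM over all barcodes, whereas Tyk2 stood at 18.1, 19.0 and 20.2 CPM. The Treg-like value of Jak2 was log2 0.56 without reaction 2 and 2.18 without reaction 1, with 1 Treg-like sum left in each case. Without reaction 2 the CD8 T-like value was -1.40 (adjusted p = 0.212). Without reaction 1 the CD8 T-like value was -1.10 (adjusted p = 0.229), and with thinned barcodes -1.04 (adjusted p = 0.0634). DESeq2 called neither, at log2 1.52 in Treg-like (adjusted p = 0.235) and -1.40 in CD8 T-like sums (adjusted p = 0.110).

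Jak3 and Tyk2 had too few UMIs in the gated TDLN classes for the main test. In reactions 1 and 2, Jak3 was 33.0 and 29.9 CPM in CD8 T-like sums from 27 and 69 UMIs, and 16.4 and 16.3 CPM in B-like sums from 8 and 15 UMIs. It was thus higher in CD8 T-like than in B-like sums in each of these reactions. Tyk2 was 15.9 and 18.6 CPM in CD8 T-like sums from 13 and 43 UMIs and 8.22 and 17.4 CPM in B-like sums from 4 and 16 UMIs, so the ranges of both classes overlapped. In reaction 3 the 18 CD8 T-like barcodes held 0 UMIs of Jak3 and 1 of Tyk2 and the 10 B-like barcodes 0 of either, where a count of 0 allows up to 57.8 and 183 CPM. When the CD4, CD8 and Treg subsets were summed, the B-like differences were log2 -0.87 ± 0.38 for Jak3 (adjusted p = 0.0748) and -0.56 ± 0.40 for Tyk2 (adjusted p = 0.338). T-like barcodes outside these subsets (216, 614 and 15 in reactions 1, 2 and 3) were in no class. Without the low-count filter, Jak3 differed by log2 -0.36 in B-like (adjusted p = 0.774) and 0.92 in CD8 T-like sums (adjusted p = 0.212). A set of 15 DC-like barcodes in TDLN reaction 2, too few for the test, held 427 CPM of Jak2 from 18 UMIs, above the values of the tested TDLN classes.

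**Figure D2:**
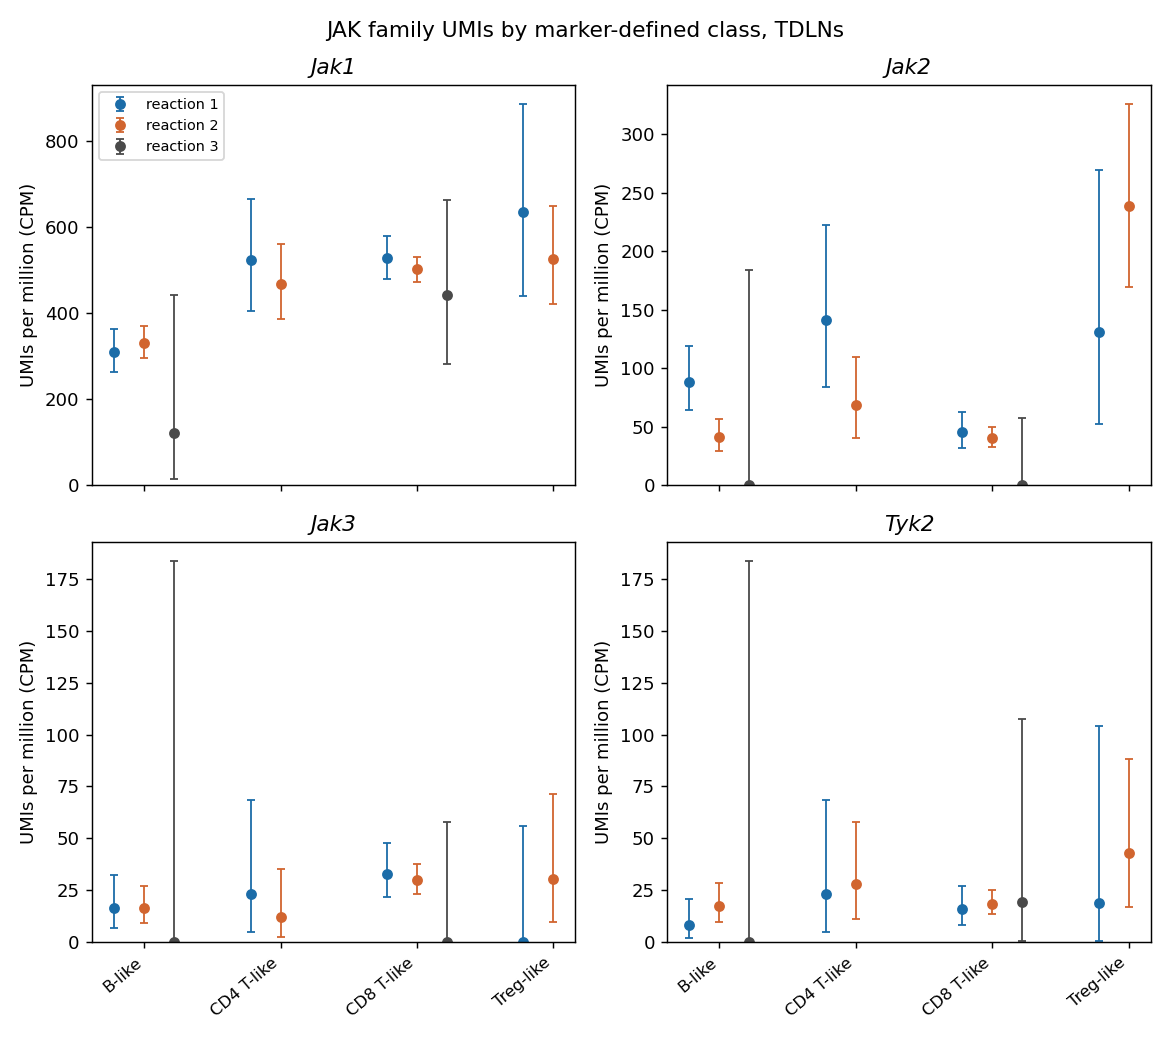
Level of each JAK gene (CPM) in the marker-defined classes of TDLNs, one point per reaction, with 95% exact Poisson intervals for counting error (0 UMIs drawn with the upper limit of 3 counts). Jak1 lies between 122 and 331 CPM in B-like sums and between 443 and 635 CPM in the T-like classes, and Jak2 is lower in CD8 T-like (45.2 and 40.3 CPM in reactions 1 and 2) than in Treg-like sums (131 and 238 CPM).

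By treatment, macrophage-like barcodes were the only lineage other than T cells in which each of the 4 treatments kept at least 10 barcodes in both reactions. Jak1 was higher in CPI than in the other 3 groups, whereas Jak2, Jak3 and Tyk2 passed no comparison. Isotype sums held 105 and 91.7 CPM of Jak1, from 3715 and 3721 barcodes. CPI sums held 203 and 202 CPM (67 and 68 UMIs), from 144 and 130 barcodes. Isotype + ABT-317 sums held 90.7 and 78.9 CPM and CPI + ABT-317 sums 106 and 86.8 CPM, from 212 to 308 barcodes. Both CPI values lay above all 6 others. CPI + ABT-317 overlapped both isotype and isotype + ABT-317, which adjoined each other without overlap.

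CPI exceeded isotype by log2 1.00 ± 0.16 for Jak1, or 2-fold (edgeR's quasi-likelihood test, adjusted p = 0.000844), in a comparison that called 15.8% of all genes. CPI + ABT-317 was below CPI by log2 -1.04 ± 0.18 (adjusted p = 0.00194), where 9.52% of genes were called. These 2 contrasts share the CPI sums. CPI + ABT-317 against isotype + ABT-317 gave log2 0.21 ± 0.17 (adjusted p = 0.709) and called 1.6% of genes, and isotype + ABT-317 against isotype gave -0.25 ± 0.15 (adjusted p = 1) and called 0.0354%, or 3 genes. The 2 Jak1 calls were the only ones among 16 tests.

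Whether ABT-317 acted differently on Jak1 under CPI and under isotype was tested by an interaction term, which was log2 -0.79 ± 0.23 (adjusted p = 0.0758) and so missed the threshold, in a comparison that called 4.66% of genes. With the reaction as a replicate block it was -0.78 ± 0.21 (adjusted p = 0.00803), where 12.2% of genes were called. It also passed without the upper gene limit (-0.88, adjusted p = 0.0270, 4.56% of genes called), with a stricter gate (-1.07, adjusted p = 0.0264, 4.4%) and with all barcodes other than T-like ones as 1 class (-0.996, adjusted p = 0.0152, 22.7%). It did not pass with DESeq2 (adjusted p = 0.101), another hashtag rule (0.218), no low-count filter (0.305), thinned barcodes (0.325) or without barcodes holding fibroblast or monocyte markers (0.502).

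Other features of the CPI macrophage-like sums moved with Jak1. The median depth was 2154 and 2330 UMIs per barcode in CPI against 3161 to 4225 in the other groups. The 7 macrophage markers summed to 8394 and 9232 CPM in CPI and to 12770 to 16980 CPM elsewhere, with 7 of 7 detected in every group. The monocyte list reached 539 and 411 CPM in CPI against 121 to 168 CPM elsewhere, and the fibroblast list 688 and 581 CPM against 184 to 481 CPM, with 5 and 6 of 7 fibroblast markers detected in CPI. T cell markers summed to 15.2 and 11.9 CPM in CPI and 1.16 to 4.93 CPM elsewhere, against 2528 and 3682 CPM in T-like sums. The share of hashtagged barcodes that passed the filters was 91.3% and 85.0% in CPI, 49.1% and 43.3% in isotype, 19.4% and 11.4% in isotype + ABT-317 and 19.2% and 16.5% in CPI + ABT-317. With every barcode thinned to 1000 UMIs, both Jak1 differences passed, at log2 1.06 ± 0.24 between CPI and isotype (adjusted p = 0.00416, 14.5% of genes called) and -0.96 ± 0.29 between CPI + ABT-317 and CPI (adjusted p = 0.0412, 7.71%). Thinning evens out the UMIs per barcode and drops barcodes under 1000, but leaves the expected Jak1 share of a barcode unchanged. It therefore cannot show whether the shallower CPI barcodes were of another kind, which was not tested. With barcodes that held any fibroblast or monocyte marker left out, a choice made after seeing the data, CPI sums held 213 and 214 CPM of Jak1 (11 and 21 UMIs from 25 and 43 barcodes) against 106 and 85.1 CPM in isotype. The CPI difference was then log2 1.12 ± 0.30 (adjusted p = 0.0225, 8.67% of genes called), and that between CPI + ABT-317 and CPI -1.09 ± 0.33 (adjusted p = 0.0609).

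**Figure D3:**
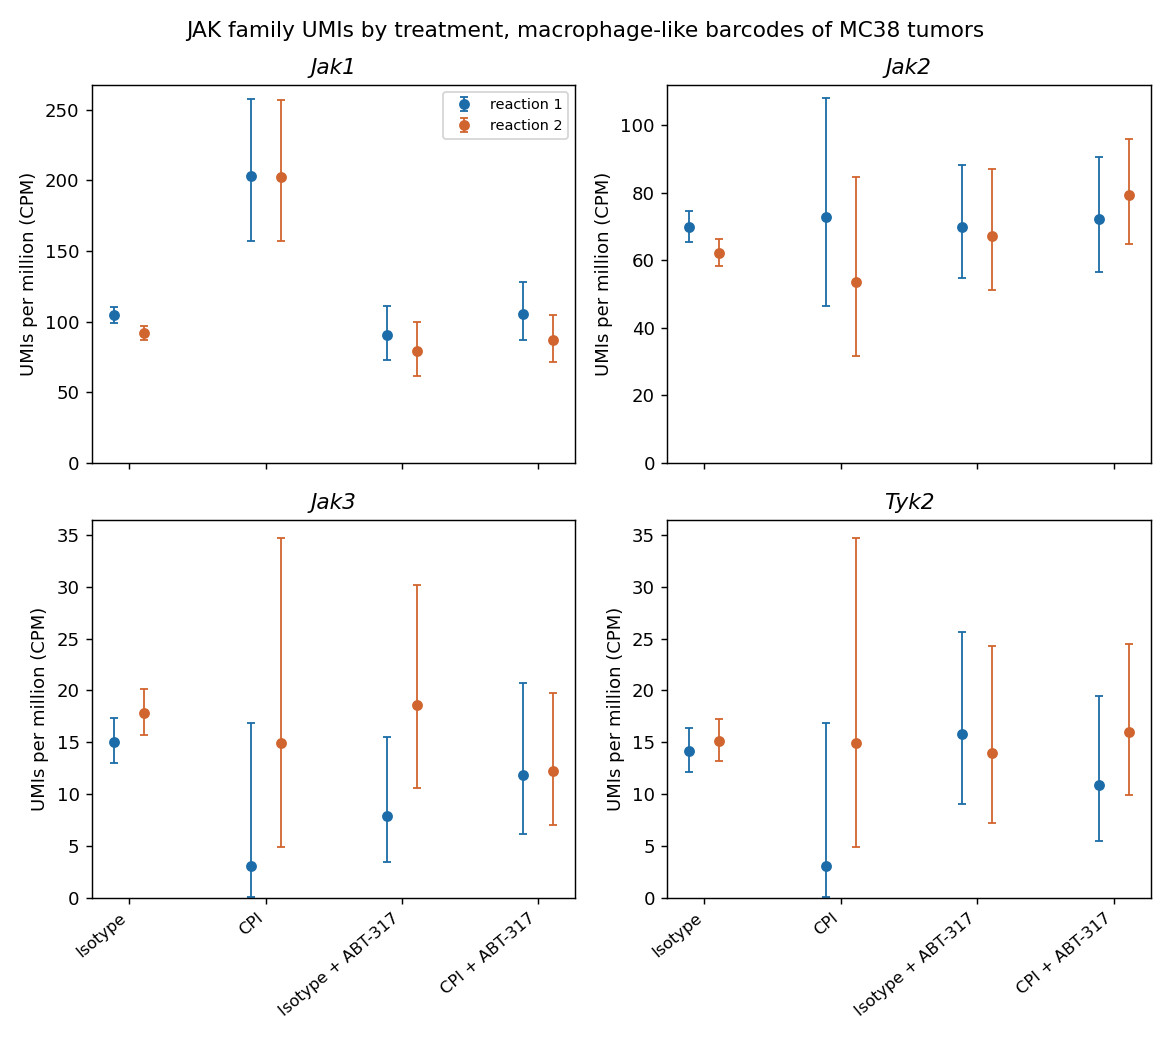
JAK levels (CPM) in macrophage-like barcodes of MC38 tumors by treatment, one point per reaction with 95% exact Poisson intervals for counting error. Jak1 stands at 203 and 202 CPM in CPI and between 78.9 and 106 CPM in the other 3 groups, while Jak2 spans 53.6 to 79.2 CPM over all groups.

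**Figure D4:**
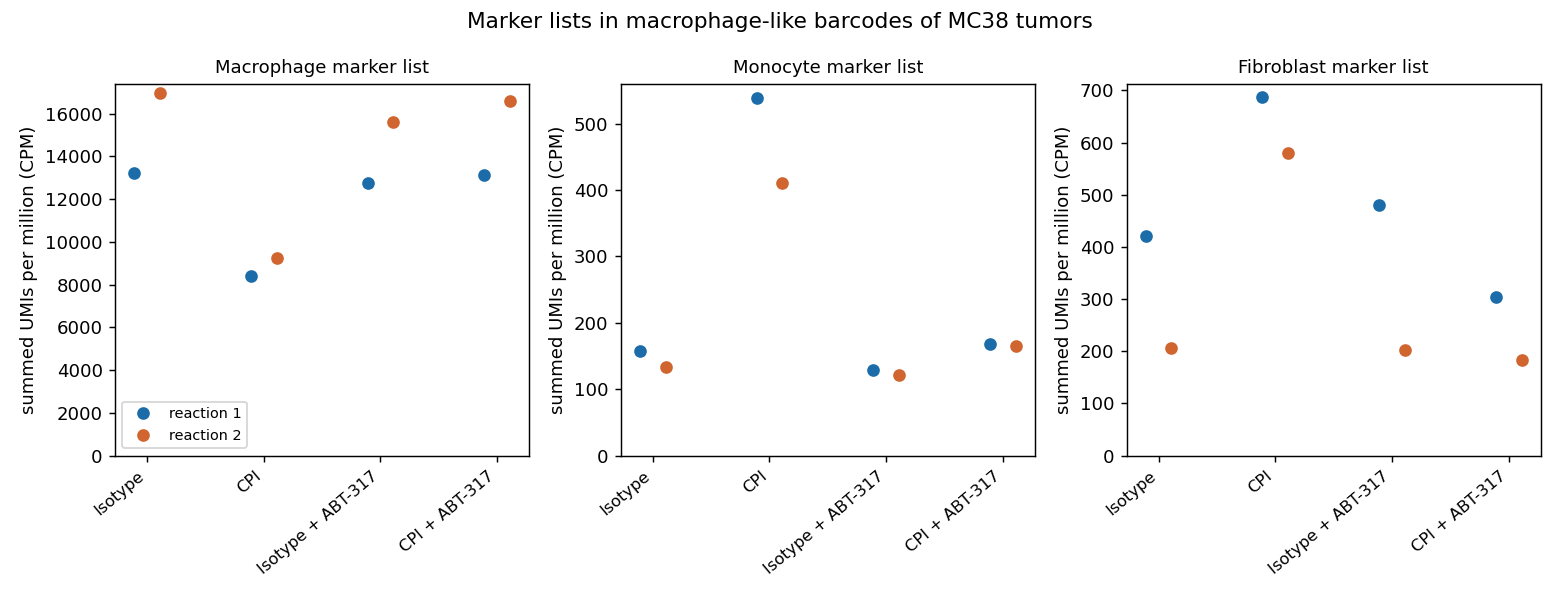
Summed level (CPM) of marker lists in the same macrophage-like sums by treatment, one point per reaction. The macrophage list is lower in CPI (8394 and 9232 CPM) than in the other groups, and the monocyte list is higher (539 and 411 CPM).

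No treatment comparison of the other 3 members passed the test in macrophage-like sums. Jak2 was 70.0 and 62.2 CPM in isotype, 72.7 and 53.6 CPM in CPI, 70.0 and 67.3 CPM in isotype + ABT-317 and 72.1 and 79.2 CPM in CPI + ABT-317. The difference between CPI and isotype was log2 -0.11 ± 0.22 and that between CPI + ABT-317 and CPI 0.31 ± 0.23 (adjusted p = 0.785 and 0.476). The CPI range of Jak2 overlapped each other group, and CPI + ABT-317 lay just above isotype and isotype + ABT-317. Jak3 ranged from 3.03 to 18.6 CPM and Tyk2 from 3.03 to 15.998 CPM over the 8 sums. The CPI values of both rest on 1 and 5 UMIs each.

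Fibroblast-like barcodes kept under 10 barcodes in 2 of the 8 sums and were not tested with the main filters. Jak1 was 262 and 284 CPM in CPI from 729 and 479 barcodes and 102 and 157 CPM in isotype from 94 and 36 barcodes, without overlap. The 7 fibroblast markers moved with it, at 83950 and 90680 CPM in CPI against 15310 and 25190 CPM in isotype, with 7 of 7 detected in each. Without the upper gene limit all 8 sums could be tested, and 5 of 16 tests passed. Jak1 was then 268 and 262 CPM in CPI and 93.7 to 110.4 CPM in the other groups, and CPI exceeded isotype by log2 1.53 ± 0.14 (adjusted p = 2.66e-06), where 51.0% of genes were called. CPI + ABT-317 was below CPI by -1.60 ± 0.14 for Jak1 (adjusted p = 3.87e-06), where 49.0% of genes were called.

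In the same fit Jak2 was higher in CPI than in isotype (34.7 and 25.9 against 16.01 and 14.7 CPM, log2 1.17 ± 0.21, adjusted p = 0.000763). With the main filters Jak2 was 34.3 and 27.5 CPM in CPI and 17.8 and 43.8 CPM in isotype, the latter from 7 UMIs each, and these groups overlapped. In the fit without the gene limit Jak3 was lower in CPI than in isotype (2.41 and 3.13 against 6.12 and 7.50 CPM, log2 -1.10 ± 0.36, adjusted p = 0.0221) and higher in CPI + ABT-317 than in CPI (log2 1.45 ± 0.39, adjusted p = 0.00917). The groups differed in what the gate caught: fibroblast markers summed to 80370 and 84770 CPM in CPI and to 5716 to 8903 CPM elsewhere, and median depth was 4023 and 5073 UMIs in CPI against 11856 to 19348. Their part in these values was not tested.

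Endothelial-like, DC-like, neutrophil-like and monocyte-like barcodes were too few by treatment for a test. Endothelial-like CPI sums held 386 and 272 CPM of Jak1 from 34 and 26 barcodes. Isotype sums held 495 and 311 CPM, but from 5 and 4 barcodes, below the minimum of 10. DC-like sums held 198 ± 142 CPM of Jak1 in CPI and 87.0 ± 39.1 CPM in isotype (SD, n = 2). Neutrophil-like sums of at least 10 barcodes held 331 CPM in CPI and 142 CPM in isotype, from 6 UMIs each. Over all barcodes other than T-like ones, whose class mix differed by treatment, Jak1 was 266 ± 16.3 CPM in CPI and 109 ± 7.93 CPM in isotype (SD, n = 2). DC-like CPI sums held 242 and 291 CPM of Jak2 and isotype sums 325 and 386 CPM, from 12 to 15 barcodes each. With the main filters the high Jak2 of DC-like barcodes was thus present in both groups. Without the upper gene limit it was 241 ± 71.7 CPM in CPI and 155 ± 125 CPM in isotype (SD, n = 2), so isotype sums spread widely. With the main filters, Tyk2 in DC-like sums was 112 and 97.2 CPM in CPI and 19.1 and 119 CPM in isotype, from 1 to 6 UMIs. Neutrophil-like sums held 12 and 3 barcodes in CPI and monocyte-like sums 10 and 4, with at most 6 UMIs of any JAK gene.

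**Figure D5:**
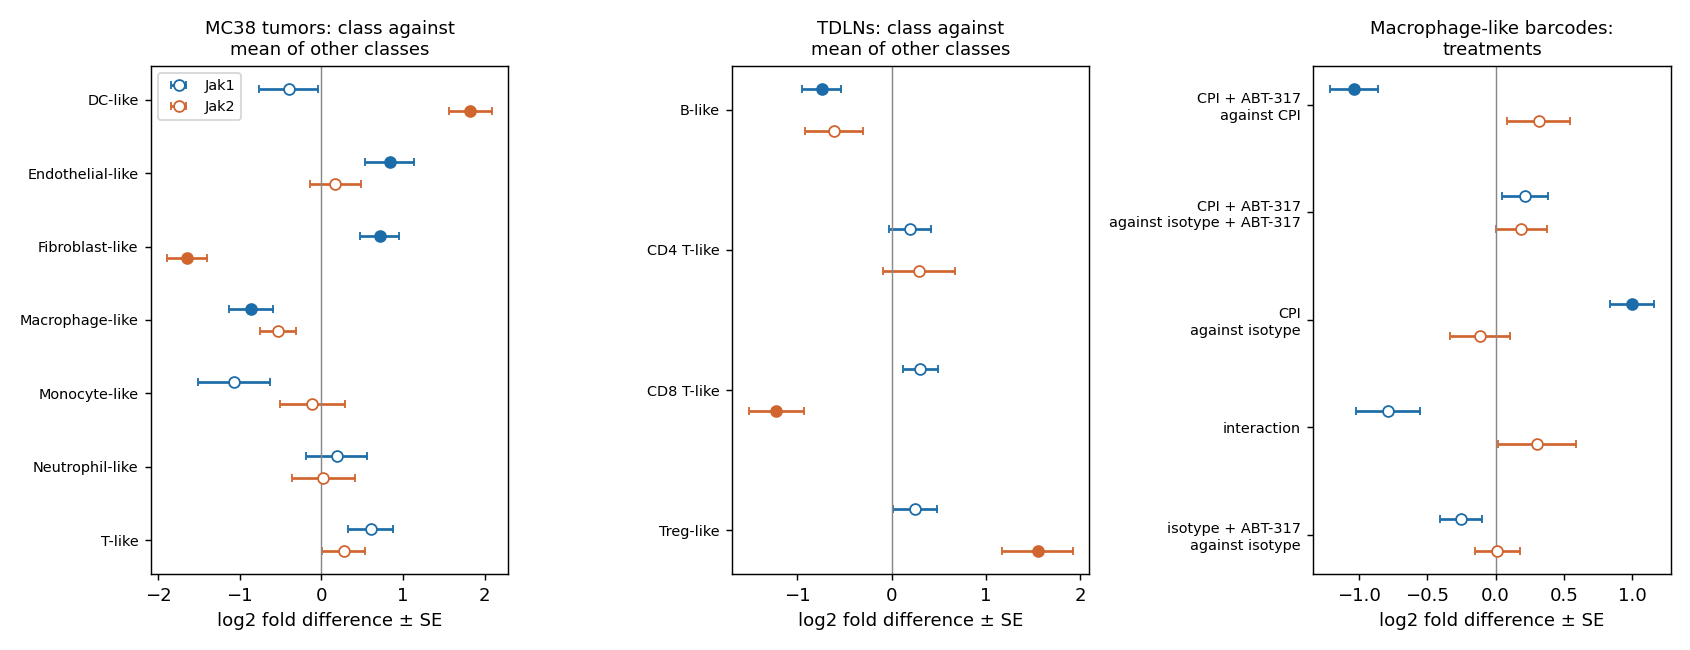
Log2 differences of Jak1 and Jak2 with their standard errors, by class in MC38 tumors and TDLNs and by treatment in macrophage-like sums, with filled points for an adjusted p under 0.05. Jak2 stands apart in DC-like (1.82) and fibroblast-like (-1.65) sums of MC38 tumors, and Jak1 in macrophage-like sums for CPI against isotype (1.00) and CPI + ABT-317 against CPI (-1.04).

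The rest of the pathway was followed through 43 genes, 7 STATs, 14 feedback inhibitors and phosphatases and 22 receptor chains, of which 33 passed the low-count filter in MC38 classes. DC-like sums were higher for 14 of 33 and lower for none, where 11.1% of all genes were higher, and the median difference of the 7 STATs was log2 1.27 against -0.03 over all genes. T-like sums were higher for 13 and lower for 4 (14.6% and 7.03% of all genes), macrophage-like sums higher for 9 and lower for 1 (17.3% and 7.7%), fibroblast-like sums higher for 3 and lower for 12 (24.5% and 17.4% of all genes), and endothelial-like sums higher for 2 and lower for 7 (16.2% and 9.54%). Monocyte-like sums were higher for 5 and lower for 1 (7.39% and 0.848%), and neutrophil-like sums higher for 3 (4.67%). Stat4, the STAT of the IL-12 receptor, stood at 349 and 407 CPM in DC-like and 272 and 396 CPM in T-like sums against 2.08 and 1.14 CPM in fibroblast-like sums. Its differences were log2 4.53 ± 0.35, 4.22 ± 0.31 and -4.38 ± 0.70 (adjusted p = 1.49e-09, 3.49e-10 and 1.59e-05).

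Csf2rb, the GM-CSF receptor chain that binds Jak2, was 266 and 268 CPM in DC-like and 5.29 and 3.13 CPM in fibroblast-like sums (log2 2.68 ± 0.29 and -4.07 ± 0.32, adjusted p = 3.08e-07 and 2.68e-10). Csf2rb thus passed the test in the same direction as Jak2 in both of these classes. Socs3, a feedback inhibitor of gp130 signaling, was 291 and 346 CPM in macrophage-like and 38.4 and 33.6 CPM in T-like sums (log2 1.79 ± 0.20 and -2.003 ± 0.35, adjusted p = 2.30e-07 and 0.000120). Ptpn6, the phosphatase SHP-1, was 111 and 127 CPM in macrophage-like and 6.09 and 4.26 CPM in fibroblast-like sums (log2 2.02 ± 0.26 and -3.08 ± 0.54, adjusted p = 2.11e-06 and 5.83e-05).

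In TDLN classes 28 of the 43 genes were tested. B-like sums were higher for 3 and lower for 12 (15.8% and 14.6% of all genes), CD4 T-like and CD8 T-like sums higher for 3 each (2.4% and 5.68%) and Treg-like sums higher for 5 (4.36%). Il7r, the IL-7 receptor chain that signals through Jak1, was 16.4, 14.2 and 61.2 CPM in B-like sums, the last from 1 UMI, and 609, 711 and 616 CPM in CD8 T-like sums (B-like log2 -5.08 ± 0.29, adjusted p = 9.31e-13). Stat5b, the STAT that follows Jak1 and Jak3 at common gamma chain receptors, was 67.8, 50.1 and 122 CPM in B-like sums, the last from 2 UMIs, and 299 and 452 CPM in Treg-like sums (log2 -2.36 ± 0.24 and 1.04 ± 0.23, adjusted p = 2.48e-08 and 0.00637). Stat4 and Ptpn6 were instead higher in B-like sums (log2 0.85 ± 0.18 and 1.65 ± 0.28, adjusted p = 0.000579 and 4.64e-05). Of the chosen pathway genes, Il7r and Stat5b were thus lower in B-like sums, as Jak1 was.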

How the data were processed

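The scRNA-Seq matrices were 3 of TDLNs and 2 of MC38 tumors. The values are UMI counts per gene and barcode, deposited by the authors without normalization. Headers name Cell Ranger 7.1.0 (TDLN) and 8.0.1 (MC38), whereas the submitters' notes list Cell Ranger 3.1.0 with GRCm38 and mm10. Whether introns or strand were counted is not given in the sources used here.

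Barcodes with 200 to 2499 genes and under 10% mitochondrial counts were kept. Classes were gated on the number of marker genes with a UMI. Barcodes were left out where markers of another lineage reached 0.25 of that lineage's typical level, which also served in place of a doublet caller. Related lineages were exempt, such as monocyte and DC markers in macrophage-like barcodes, so classes could hold some markers of other lineages. Treatments came from a 2-component Gaussian mixture per hashtag (scikit-learn 1.9.0), with exactly 1 hashtag present. Counts were summed per class or treatment and reaction, and sums of fewer than 10 barcodes were left out. edgeR 4.0.16 (R 4.3.3) was run with TMM, filterByExpr, the quasi-likelihood test and Benjamini-Hochberg adjustment over all genes. The share of genes called excludes marker genes. DESeq2 1.42.0, other filters, gates, scaling, thinning to 1000 UMIs and left-out reactions were alternatives. The fits were tested on simulated counts with a dispersion (spread between sums beyond counting error) of 0.03. Of 2-fold changes, 64% were recovered for fibroblast-like sums, 46% for B-like sums of TDLNs and 19% for CPI against isotype in macrophage-like sums. Of 4-fold changes, 82%, 91% and 75% were recovered. The dispersion fitted to the macrophage-like sums by treatment was 0.0151, lower than in the simulation. Intervals (95%, exact Poisson) and the floor of 3 counts cover counting error only.

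Reaction numbers paired the sums, since sums of one number come from the same library. Deviations correlated in 12 of 12 pairs by treatment, with each correlation counted once in each reaction. Named genes were the 4 JAKs, and per role at most 3 of the 43 pathway genes that passed most often. For each JAK the most correlated gene among those of at least 20 CPM was named. Members, lists and gates were chosen with earlier results of these data known, and the marker cut-offs after marker detection was seen. T cells by treatment were not analysed here. One pathway gene that the rule names is not reported here. Promoters came from RefSeq tables and gene positions from the annotation of GRCm38.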

Additional observations from a re-analysis of the deposited data

How the results depend on the processing

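Each choice was changed alone, except that the fit with 9 calls changed the filter and the classes, and that of fibroblast-like barcodes the lineage and the gene limit. For cell classes in MC38 tumors, 5 of 14 JAK tests passed, 6 of 14 by DESeq2, with its size factors and with the replicate block, and 5 of 12 with thinned barcodes. Fits that also tested Jak3 or Tyk2 gave 6 of 28 without a low-count filter (3 of them Jak3, not used above), 7 of 28 without the gene limit, 7 of 16 with the stricter gate and 9 of 20 without the filter and without neutrophil-like and monocyte-like sums. In each of these 4, and with thinned barcodes, at least 1 of the 3 Jak1 calls was lost. In TDLNs 3 passed, against 1 by DESeq2, 1 with thinned barcodes, 1 with T subsets summed, 5 with the replicate block and 0 to 3 when a replicate was left out. By treatment 2 passed, against 5 for fibroblast-like barcodes without the gene limit and 1 without barcodes holding fibroblast or monocyte markers. The interaction passed for none of 4 genes by edgeR (1 at an unadjusted p under 0.05, 0 by DESeq2), and for 1 without the gene limit, with fibroblast-like barcodes, the stricter gate, the replicate block or all other than T-like barcodes as 1 class. The cause of these changes was not tested. Of 115 single values under alternatives, 90 kept their call or moved within the spread, and 0 changed sign, which covers the called Jak1 and Jak2 values and the Jak1 interaction. Leaving out an MC38 reaction left no residual degrees of freedom and so no test. The stricter gate kept 4 MC38 classes and thinning dropped neutrophil-like sums. Same-numbered sums come from 1 library, and their deviations correlated over 0.1 in 12 of 12 pairs by treatment (0.253 to 0.65), 36 of 42 in MC38 classes and 6 of 13 in TDLNs. With 2 MC38 reactions the deviations of a group mirror each other, so each MC38 correlation is counted once in each reaction. The pairing changed no call beyond those given with the results. Counts of under 20 UMIs limit Jak3 and Tyk2 in the small classes.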

Other observations

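Pathway genes other than the JAKs also differed by treatment in macrophage-like barcodes of MC38 tumors. Of 37 tested, 5 were higher and 4 lower in CPI than in isotype (8.44% and 7.36% of all genes), 5 were higher in CPI + ABT-317 than in CPI (4.8%), 4 were higher in CPI + ABT-317 than in isotype + ABT-317 (1.37%), and none differed between isotype + ABT-317 and isotype by edgeR. Socs1, an inhibitor that interferons induce, was 45.4 and 83.4 CPM in CPI and 53.3 and 90.7 CPM in CPI + ABT-317, against 18.2 and 23.9 CPM in isotype and 12.8 and 13.9 CPM in isotype + ABT-317. CPI exceeded isotype by log2 1.56 ± 0.38 for Socs1 (adjusted p = 0.0119), and CPI + ABT-317 exceeded isotype + ABT-317 by 2.50 ± 0.39 (adjusted p = 0.00376). Il7r rose in CPI + ABT-317, at 162 and 169 CPM against 66.7 and 86.3 CPM in CPI (log2 1.16 ± 0.22, adjusted p = 0.00476). Csf2rb and Ptpn2, a phosphatase that acts on JAKs and STATs, were higher in CPI than in isotype (Csf2rb 142 and 164 against 59.5 and 59.7 CPM, Ptpn2 93.9 and 83.4 against 43.2 and 37.8 CPM, adjusted p = 0.00206 and 0.00374). Stat2 and Socs3 were lower in CPI than in isotype (Stat2 18.2 and 14.9 against 42.8 and 39.8 CPM, Socs3 200 and 229 against 322 and 374 CPM, adjusted p = 0.00939 and 0.0188). Il2ra had 0 UMIs in both CPI sums, a limit of 9.09 and 8.93 CPM that does not lie below the isotype values of 7.24 and 7.54 CPM, so no fold is given. The same CPI sums differed in depth and in monocyte and fibroblast markers, and the part of these in the pathway values was not tested.

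Barcodes with a Hmga2 UMI, no Ptprc UMI and few markers of any lineage formed an unnamed set in MC38 tumors. Without the upper gene limit their Jak1 level was 72.3 and 69.8 CPM in isotype, 90.4 and 70.7 CPM in CPI, 62.2 and 62.4 CPM in isotype + ABT-317 and 62.3 and 58.0 CPM in CPI + ABT-317, with 53 and 22 barcodes in CPI and 985 to 1907 in the other groups. With the main filters the order differed, with isotype highest at 267 ± 127 CPM (SD, n = 2). Isotype + ABT-317 then held 151 ± 35.5 CPM and CPI + ABT-317 93.3 ± 1.67 CPM (SD, n = 2). The 1 CPI sum of at least 10 barcodes held 166 CPM from 7 UMIs. Over the 14 class sums of MC38 tumors, the gene with the pattern most like Jak1 was Utrn (Pearson r = 0.955 of log2(CPM + 1)), for Jak2 Apobec3 (0.888), for Jak3 Asb3 (0.896) and for Tyk2 Ass1 (0.946), as a description of 6429 genes in sums that share 2 libraries and include 0 counts. Over the 10 TDLN sums they were Spata13 (0.995), Erc1 (0.996), Klhdc1 (0.989) and Mgat2 (0.985).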
